A study of Mus musculus with 6 samples.

Results

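Type I interferon response genes are a fixed list of 33 genes known to be induced by interferon alpha and beta. They were found by symbol in the deposited table, where all 33 were present among 50763 gene symbols, and all 33 passed the filter on low counts that left 19313 genes. RNA was measured in CD34-negative KSL cells of mouse bone marrow, a sorted population that lacks lineage markers, carries c-Kit and Sca-1, and is enriched for long-term haematopoietic stem cells. Every mouse carried Tal1-tTA, an activator driven by the blood and stem cell gene Tal1 and silenced by doxycycline, together with TRE-EGFR-tr, its target transgene. In the EGFR-DN group (3 libraries) the mice drank water without doxycycline and produced, beside the wild-type epidermal growth factor receptor (EGFR), a truncated one that lacks the cytoplasmic kinase domain. In the EGFR-WT group (3 libraries) the water held 0.2 g/L doxycycline, and by design only the wild-type receptor can be made. The drug therefore differed between the groups in every library, so transgene and drug cannot be told apart. The labels used here give no age or sex, and they do not say which libraries came from separate animals. The p-values therefore measure the spread between these libraries, which may be partly technical.

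Interferon alpha and beta bind the receptor pair encoded by Ifnar1 and Ifnar2, which activates the kinases JAK1 and TYK2. These activate STAT2, which joins IRF9 in a complex that binds interferon-stimulated response elements in promoters. Blood stem cells are known to leave quiescence when exposed to interferon alpha, and stem cells of several tissues, blood among them, are known to keep some of these genes on without it.

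Total counts ranged from 24073133 to 36032428 per library. The lowest estimated count of any member in any library was 9.5 (Ifit3b), and 29 members had at least 100 counts in each library. Egfr, which checks the labels, had 4022, 4758 and 991 counts in the EGFR-DN libraries, against 6 in each EGFR-WT library. Transcripts of the wild-type receptor were thus few in the EGFR-WT cells, and the protein was not measured. EGFR-DN replicate 3 stood apart. It had 25.4% of its counts in 8 rRNA-like genes, against 4.71% to 6.15% in the other 5 libraries, and the fold changes of the members are also given without it. Kit had 736, 805 and 1959 CPM in EGFR-DN, the last of them in replicate 3, against 805, 785 and 770.0 CPM in EGFR-WT, and its log2 fold change of 0.57 became −0.03 without that library. Transcripts of Cd34 were found in all 6 libraries, at 493 ± 101 CPM in EGFR-DN and 377 ± 51.7 CPM in EGFR-WT (mean ± SD, n = 3 each). CPM scales each count to the library's total, adjusted between libraries by the trimmed mean of M-values (TMM). The sort was on surface CD34, which these RNA levels do not measure.

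The letters of the response element can be looked for in the promoters of these genes. Of the 33 members, 23 had a promoter in the RefSeq table of GRCm38.p6, which runs from 250 bases before to 50 bases after each annotated start. The core motif, GAAA and again GAAA with any 2 bases (NN) between them, or its reverse complement, TTTC and again TTTC around NN, was searched on both strands with overlapping matches counted. It was found in 11 of these 23 genes (47.8%) and in 3.99% of the 27025 genes of the table. At least 2 matches were found in 7 of the 23 genes and in 0.266% of all genes. The stretches below are shown because they belong to Ifit1, Ifit3 and Ifitm3, the members with the smallest p-values over all 6 libraries, to Ifit3b, the near copy of Ifit3, to the ubiquitin-like modifier gene Isg15, and to Oas3. Each reads 5′ to 3′ on the strand of the gene, with the motif in capitals.
Ifit1: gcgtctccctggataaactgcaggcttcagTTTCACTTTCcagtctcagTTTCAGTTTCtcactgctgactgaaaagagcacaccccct
Ifit3: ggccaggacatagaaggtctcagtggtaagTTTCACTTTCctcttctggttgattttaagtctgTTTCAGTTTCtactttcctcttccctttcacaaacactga
Ifit3b: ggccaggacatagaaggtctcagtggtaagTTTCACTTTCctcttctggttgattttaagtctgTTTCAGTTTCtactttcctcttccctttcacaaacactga
Isg15: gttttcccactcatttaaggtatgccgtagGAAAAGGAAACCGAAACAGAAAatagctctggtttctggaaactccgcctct
Oas3: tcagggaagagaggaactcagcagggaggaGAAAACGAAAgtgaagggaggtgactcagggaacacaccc
Ifitm3: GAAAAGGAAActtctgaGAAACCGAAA

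On GRCm38.p6 the Ifit1 stretch lies at chr19:34640755-34640843 on the plus strand, upstream of the gene's start. The Ifit3 stretch lies at chr19:34583343-34583446 and the Ifit3b stretch at chr19:34607739-34607842, both on the plus strand, and their 104 bases are the same letter for letter. The Isg15 stretch lies at chr4:156200845-156200926 on the minus strand, with 3 overlapping matches, and the Oas3 stretch at chr5:120777695-120777764 on the minus strand. In Ifitm3 the matches lie just inside the transcribed part, at chr7:141010716-141010742 on the minus strand. A match describes letters only and does not show that a factor binds. The 11 genes with a match had a median log2 fold change (EGFR-DN minus EGFR-WT) of −0.21, and the 12 without one −0.05. Without EGFR-DN replicate 3 these medians were −0.22 and −0.14. Over all 6 libraries the 11 genes ran from −0.80 (Ifit3) to 0.62 (Oas3), and the 12 from −0.42 (Irf1) to 0.56 (Oasl1). Ifit3 and Ifit3b, with the same stretch, both count among the 11. Members without a promoter in the table, such as Oas2 (1.15) and Mx1 (0.91), are in neither set. The difference was not tested.

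Near-identical copies and overlapping genes also bear on how the reads were counted. The authors deposited estimated counts, which are fractional where a read fits more than 1 gene, and 16 members had a fractional value in at least 1 library. In every library the counts of Ifit3 and Ifit3b added up to a whole number within 0.02, and so did those of Mx1 and Mx2, Isg15 and Gm9706, Ifi27 and Ifi27l2a, Usp18 and Gm44148, and Stat2 and Apof. For Ifit3 and Ifit3b the division matters, since Ifit3 had 36.3 to 148.5 counts per library and Ifit3b 9.5 to 29.5, so each of their separate values is uncertain. The same holds for Mx1, with 32.3 to 98.8 counts, and Mx2, with 27.2 to 63.7. For Isg15 it matters less, since Gm9706 held 4.08 to 24.5 counts beside 159.5 to 749 for Isg15. The counts of Ifih1 also added up to whole numbers with those of Gm39839, which held at most 7.58. Ifit1, Oas1a and Ifitm3 were fractional in all 6 libraries, and no single other gene made their counts whole. The genes that share their reads were therefore not found. The library kit does not mark strand. Exons of 6 members overlap a gene on the opposite strand in a GENCODE annotation of GRCm38, among them Parp9 with Dtx3l and Dhx58 with Dhx58os. Usp18 and Gm44148, whose counts added up to whole numbers, are another such pair. Exons of 3 members overlap a gene on the same strand, such as Irf9 with Rnf31. Reads of such partners may be mixed.

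Transcripts of the response genes were present in all libraries. Per kb of exon, 25 of the 33 members lay above the middle of all tested genes in EGFR-WT, and 9 lay in the top 20%. Ifitm3, whose protein blocks fusion of virus and host membranes, was first at 481 ± 82.7 CPM per kb in EGFR-DN and 725 ± 110.96 CPM per kb in EGFR-WT (mean ± SD, n = 3 each), which is percentile 99.2 and 99.5 of the tested genes. Bst2, which encodes tetherin, a protein that holds budding virus at the cell surface, followed at 71.6 ± 34.3 CPM per kb in EGFR-DN and 95.4 ± 2.26 CPM per kb in EGFR-WT. Ifi27, a gene of a small mitochondrial protein, was at 87.6 ± 29.4 CPM per kb in EGFR-DN and 80.3 ± 12.8 CPM per kb in EGFR-WT. The gap between Ifitm3 and these genes was wider than the spread of any of them, whereas Bst2 and Ifi27 were not separated beyond their spread.

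The next members in order lay close together. Ifi35, Rtp4, Isg15, Irf1, Oas1a, Isg20, Oasl2 and Irf9 lay between 21.8 and 30.9 CPM per kb in EGFR-WT, and neighbours in this order mostly differed by less than their SD. The genes from Ifi44 to Oasl1 lay between 2.73 and 15.4 CPM per kb in EGFR-WT. The genes at the bottom were Ifit3, at 1.20 ± 0.131 CPM per kb in EGFR-DN and 2.11 ± 0.538 CPM per kb in EGFR-WT, then Oas2, Mx2, Mx1 and Ifit3b. Mx1 encodes a GTPase that blocks influenza virus, and many inbred mouse strains are known to carry a defective Mx1. It was at 0.866 ± 0.560 CPM per kb in EGFR-DN and 0.462 ± 0.238 CPM per kb in EGFR-WT. The strain is not given in the sources used here. Exon length is the union of exons in the GRCm38 annotation, which is not the build of the deposited counts (mm39), so these per-kb levels are approximate.

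**Figure D1:**
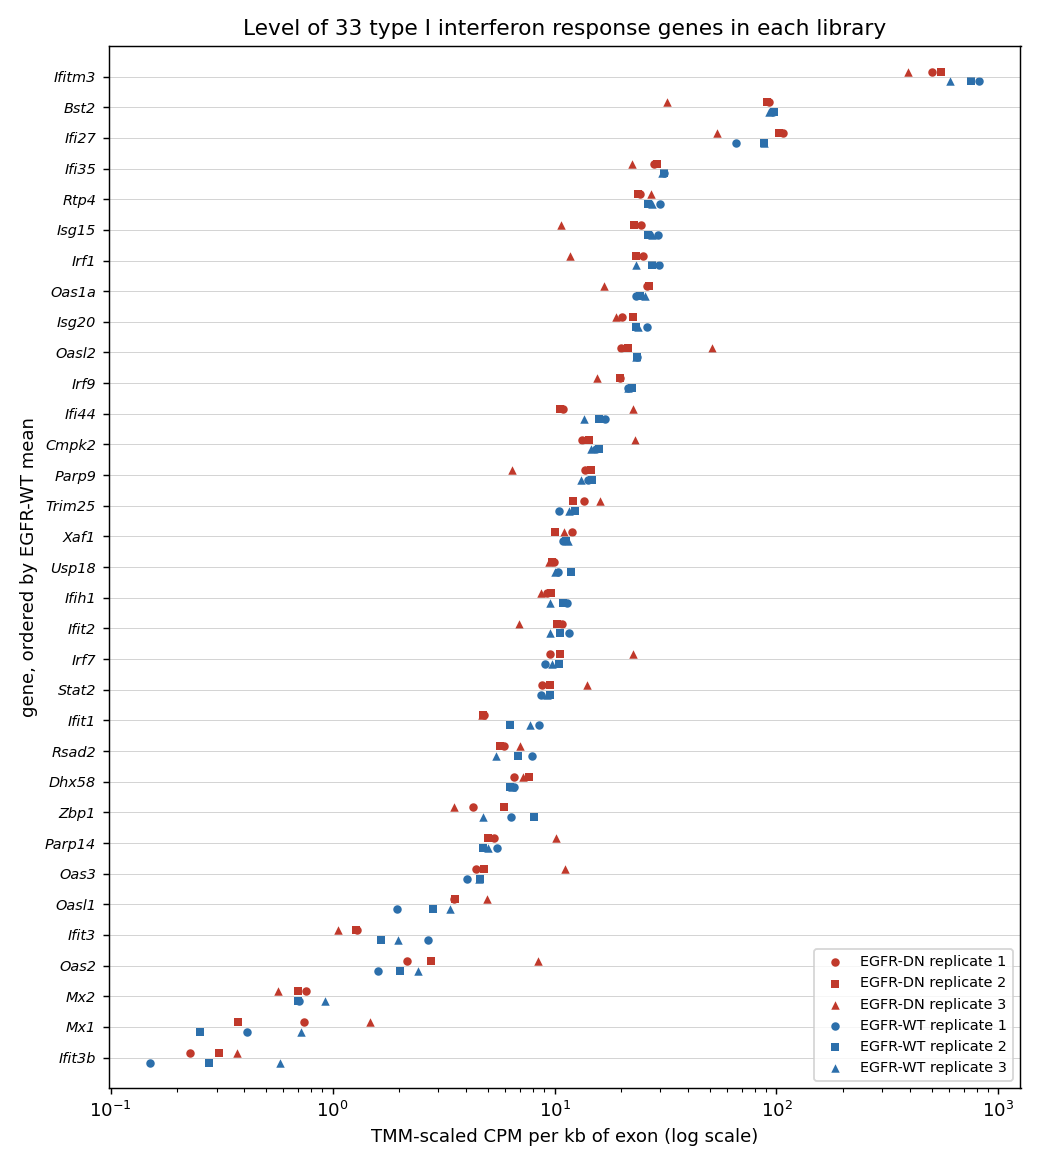
Each point is 1 library and shows the TMM-scaled CPM per kb of exon on a log axis, for 33 genes ordered by their EGFR-WT mean. Ifitm3 lies far to the right, at 481 in EGFR-DN and 725 in EGFR-WT on average, and the triangles of EGFR-DN replicate 3 often lie away from the other libraries.

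Between the groups, 0 of the 33 members passed the threshold. The 2 groups were compared across all 19313 genes with edgeR (quasi-likelihood, p-values adjusted over all of them by the Benjamini-Hochberg method), and the smallest adjusted p of a member was 0.690. The same test called 0.00518% of all genes, which was Egfr alone. At an unadjusted p under 0.05, 3 members (9.09%) were lower and 0 were higher, where 2.4% of all genes were lower and 4.3% higher. DESeq2 on the 6 libraries called 0 members and 0.699% of all genes (0.186% lower, 0.513% higher). At its unadjusted p under 0.05, 3 members were lower, against 2.79% of all genes, and Oas2 was higher, against 6.33% of all genes. Of the 33 log2 fold changes 21 were below 0, or 63.6%, against 49% of all tested genes, and the median was −0.15 against 0.01 over all genes. In 9 members every EGFR-DN library lay below every EGFR-WT library, which is 27.3%, against 8.74% of all tested genes. In 1 member, Oasl1, every EGFR-DN library lay above, against 9.16% of all tested genes, and in 23 members the groups overlapped. In bulk RNA, fewer cells that carry a transcript and less of it per cell cannot be told apart.

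Summed over the 33 members, the libraries held 1461, 1496 and 1480 CPM in EGFR-DN, against 1726, 1701 and 1542 CPM in EGFR-WT. The EGFR-DN libraries were all below the EGFR-WT libraries, but Ifitm3 alone made up 17.9% to 25.0% of the sum in EGFR-DN and 26.5% to 32.1% in EGFR-WT. Without Ifitm3 the sums were 1121, 1122 and 1215 CPM in EGFR-DN, against 1172, 1188 and 1134 CPM in EGFR-WT, and the groups overlapped. The median member lay at −0.09, −0.10 and −0.19 on the log2 scale against the EGFR-WT mean in EGFR-DN replicates 1 to 3, and at 0.01, 0.03 and −0.02 in EGFR-WT replicates 1 to 3. Over all tested genes these medians were between 0.00 and 0.01 in each library.

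**Figure D2:**
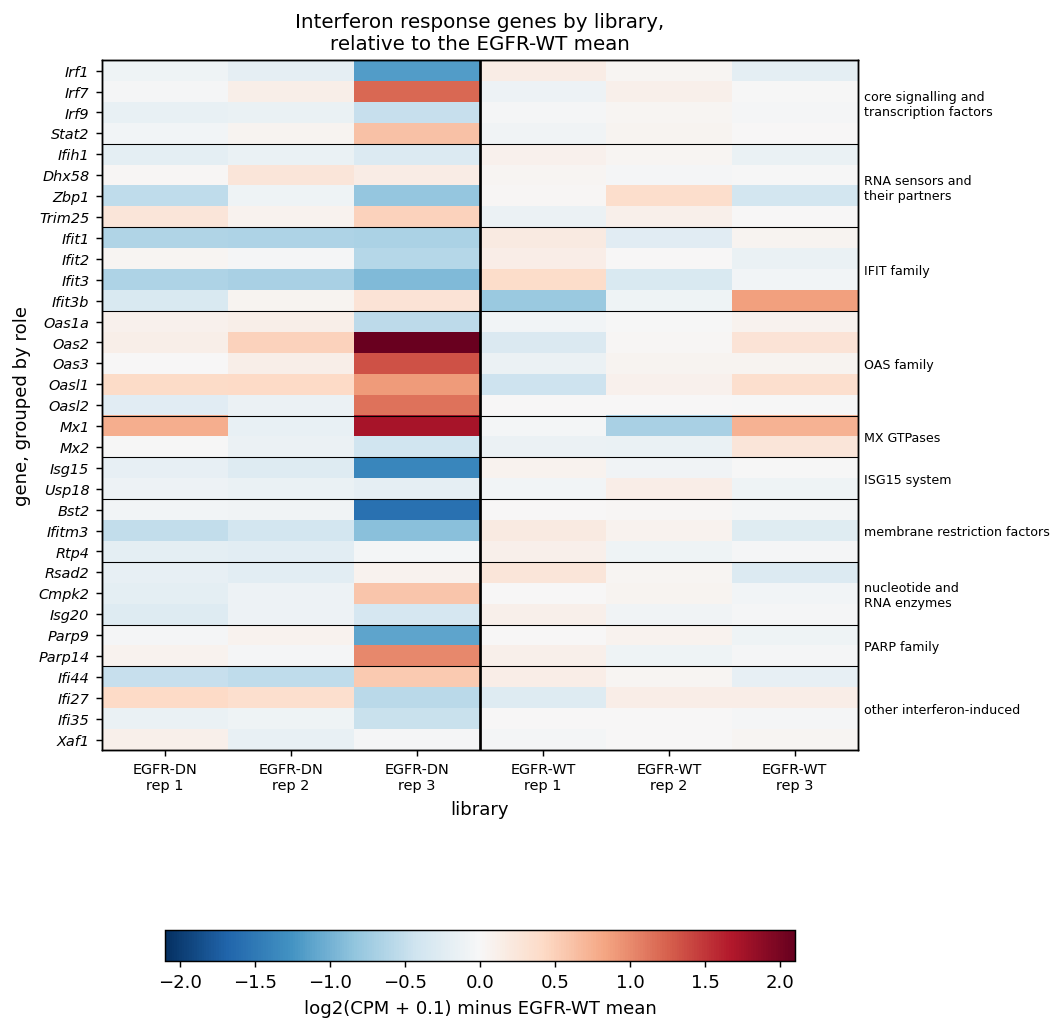
Colour gives log2(CPM + 0.1) of each gene in each library minus the EGFR-WT mean, for 33 genes grouped by role, with the EGFR-DN libraries left of the line. The column of EGFR-DN replicate 3 holds the darkest colours of both kinds, from −1.57 for Bst2 to 2.08 for Oas2.

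Among the IFIT genes, whose proteins bind viral RNA and block its translation, all 4 log2 fold changes were below 0, although that of Ifit3b turned above 0 with limma-voom (0.032). Ifit1 had 12.8, 12.6 and 12.5 CPM in the EGFR-DN libraries, against 22.5, 16.8 and 20.6 CPM in the EGFR-WT libraries. The groups did not overlap. The SD was 0.160 CPM in EGFR-DN and 2.89 CPM in EGFR-WT, each from only 3 libraries, which measure a spread poorly. The stretch of its promoter shown above holds 2 matches to the motif, which describe letters only. Ifit1 was fractional in all 6 libraries, and the genes that share its reads were not found. Its log2 fold change was −0.66 (SE 0.17), the smallest p of any member, with an edgeR adjusted p of 0.690 over all genes and a DESeq2 adjusted p of 0.0873. Without EGFR-DN replicate 3 it was −0.65 (SE 0.14, adjusted p = 0.128).

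Ifit3, which stabilises the IFIT1 protein in human cells, had 2.25, 2.21 and 1.84 CPM in EGFR-DN, against 4.71, 2.88 and 3.45 CPM in EGFR-WT. The groups did not overlap, and the log2 fold change was −0.80 (SE 0.29, edgeR adjusted p = 0.690), and −0.72 (SE 0.28) without EGFR-DN replicate 3. Its near copy Ifit3b lay at 0.606 ± 0.144 CPM in EGFR-DN and 0.673 ± 0.443 CPM in EGFR-WT (SD, n = 3 each), with a log2 fold change of −0.15 (SE 0.55), and −0.31 (SE 0.60) without that library. With the reads of both genes summed, an analysis added after the values were seen, the log2 fold change was −0.68 and the adjusted p 0.690. Ifit2 had 41.1, 39.3 and 26.5 CPM in EGFR-DN, against 44.2, 40.4 and 36.2 CPM in EGFR-WT. Its groups overlapped, and its log2 fold change of −0.18 shrank to −0.01 when EGFR-DN replicate 3 was left out.

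The 3 membrane factors were also below 0. Ifitm3 had 340.0, 374 and 265 CPM in EGFR-DN, against 555, 513 and 408 CPM in EGFR-WT, with no overlap. Its log2 fold change was −0.59 (SE 0.22, edgeR adjusted p = 0.690), and −0.47 (SE 0.13, adjusted p = 0.194) without EGFR-DN replicate 3. Bst2 had 73.0, 71.8 and 25.3 CPM in EGFR-DN, against 76.0, 77.1 and 73.6 CPM in EGFR-WT. Here the low value of EGFR-DN replicate 3 set the size of the difference, since the log2 fold change was −0.41 (SE 0.37) with that library and −0.07 (SE 0.06) without it. Rtp4, a chaperone of opioid receptors that also restricts viruses, lay at −0.15 (SE 0.14), and at −0.22 (SE 0.08) without that library, and its groups overlapped.

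In the ISG15 system, Isg15 encodes a ubiquitin-like protein that is joined to other proteins, and Usp18 encodes the protease that removes it and also damps receptor signalling. Isg15 had 18.5, 17.3 and 8.07 CPM in EGFR-DN, against 22.02, 19.9 and 20.9 CPM in EGFR-WT. The groups did not overlap, with a log2 fold change of −0.52 (SE 0.30) that became −0.23 (SE 0.10) without EGFR-DN replicate 3. Usp18 averaged 17.2 ± 0.493 CPM in EGFR-DN and 19.1 ± 1.69 CPM in EGFR-WT (SD, n = 3 each), without overlap and with a log2 fold change of −0.15 (SE 0.15), and −0.13 (SE 0.11) without that library.

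Of the 4 signalling and transcription factors, Irf9 and Irf1 were below 0 and Irf7 and Stat2 above. Irf9, the DNA-binding partner of STAT2, had 60.9, 61.2 and 48.1 CPM in EGFR-DN, against 66.7, 69.6 and 66.5 CPM in EGFR-WT. The groups did not overlap, and the log2 fold change was −0.25 (SE 0.15), and −0.15 (SE 0.06) without EGFR-DN replicate 3. Irf7, the factor that amplifies interferon alpha production, had 22.8, 25.3 and 53.9 CPM in EGFR-DN, against 21.6, 25.1 and 23.2 CPM in EGFR-WT. EGFR-DN replicate 3 alone was high, and the log2 fold change was 0.54 (SE 0.33) with it and 0.04 (SE 0.11) without it. Stat2 likewise was at 0.24 (SE 0.20), and at −0.0020 without that library. Irf1, an early activator also induced by interferon gamma, was lowest in EGFR-DN replicate 3 at 39.1 CPM, beside 83.2 and 77.5 CPM in the other EGFR-DN libraries, against 98.8, 91.6 and 77.3 CPM in EGFR-WT. Its log2 fold change was −0.42 (SE 0.29) with that library and −0.16 (SE 0.10) without it.

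The OAS genes, which make the 2-5A messenger that switches on the nuclease RNase L or encode related proteins without that activity, had log2 fold changes above 0 in 4 of 5 cases, of which Oasl2 turned below 0 without EGFR-DN replicate 3. Oas2 had 8.54, 11.1 and 33.5 CPM in EGFR-DN, against 6.38, 7.96 and 9.57 CPM in EGFR-WT. Its log2 fold change, 1.15 (SE 0.52, edgeR adjusted p = 0.690), was the largest of the 33 and became 0.30 (SE 0.21) without EGFR-DN replicate 3. Oas3, whose promoter stretch with 1 match is given above, had 20.8, 22.6 and 52.5 CPM in EGFR-DN, against 19.1, 21.7 and 21.6 CPM in EGFR-WT. EGFR-DN replicate 3 was far above the other 5 libraries, and the log2 fold change was 0.62 (SE 0.36) with it and 0.06 (SE 0.11) without it. Oasl2 had 62.2, 67.2 and 160.4 CPM in EGFR-DN, against 73.6, 73.3 and 72.4 CPM in EGFR-WT, so that EGFR-DN replicates 1 and 2 were below and replicate 3 above all EGFR-WT libraries. Its log2 fold change was 0.40 (SE 0.36) with replicate 3 and turned to −0.18 (SE 0.06) without it. Oasl1 had 7.78, 7.82 and 10.9 CPM in EGFR-DN, against 4.28, 6.26 and 7.49 CPM in EGFR-WT, with no overlap and a log2 fold change of 0.56 (SE 0.28), and 0.37 (SE 0.24) without replicate 3. Oas1a was at −0.08 (SE 0.20), and at 0.10 (SE 0.07) without that library.

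The sensors of viral RNA and their partners were mixed. Ifih1, the gene of the long double-stranded RNA sensor MDA5, averaged 50.3 ± 2.54 CPM in EGFR-DN and 58.1 ± 5.06 CPM in EGFR-WT, with a log2 fold change of −0.21 (SE 0.14), and −0.18 (SE 0.09) without EGFR-DN replicate 3. Dhx58, which encodes its helper LGP2, averaged 17.2 ± 1.33 CPM in EGFR-DN and 15.5 ± 0.363 CPM in EGFR-WT, with a log2 fold change of 0.15 (SE 0.15), and 0.14 (SE 0.11) without it. Zbp1, a sensor of Z-form nucleic acid that can start necroptosis, had 9.32, 12.8 and 7.65 CPM in EGFR-DN, against 13.7, 17.5 and 10.3 CPM in EGFR-WT, and its groups overlapped, with a log2 fold change of −0.48 (SE 0.28), and −0.33 (SE 0.24) without that library. Trim25, the ubiquitin ligase of the RIG-I pathway, was at 0.28 (SE 0.16), and at 0.16 (SE 0.09) without it.

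The other members were spread on both sides of 0. Ifi44 had 31.9, 30.8 and 65.6 CPM in EGFR-DN, against 49.2, 45.95 and 39.7 CPM in EGFR-WT. Its EGFR-DN libraries fell on both sides of EGFR-WT, and the log2 fold change was −0.07 (SE 0.31) with EGFR-DN replicate 3 and −0.52 (SE 0.10, edgeR adjusted p = 0.09995) without it. Ifi27 had 109, 105 and 55.0 CPM in EGFR-DN, against 67.2, 89.9 and 89.9 CPM in EGFR-WT, with a log2 fold change of 0.13 (SE 0.28) that became 0.38 (SE 0.13) without that library. Isg20, a nuclease that degrades viral RNA, was at 32.4 ± 2.96 CPM in EGFR-DN and 38.3 ± 2.41 CPM in EGFR-WT (SD, n = 3 each), without overlap. Ifi35 had 38.2, 39.5 and 30.3 CPM in EGFR-DN, against 42.4, 42.5 and 41.5 CPM in EGFR-WT, also without overlap. Isg20 was at −0.24 (SE 0.14) and Ifi35 at −0.23 (SE 0.15), and leaving out EGFR-DN replicate 3 gave −0.19 (SE 0.09) for Isg20 and −0.12 (SE 0.07) for Ifi35. Rsad2, the gene of the antiviral enzyme viperin, and its genomic neighbour Cmpk2, a nucleotide kinase, were at −0.12 (SE 0.19) and 0.14 (SE 0.23). With EGFR-DN replicate 3 left out Rsad2 was at −0.22 (SE 0.15) and Cmpk2 at −0.15 (SE 0.08), and Cmpk2 also turned to −0.015 with scaling by library size alone. Parp14 and Parp9 belong to the ADP-ribosyltransferase family. Parp14 was at 0.43 (SE 0.28) and Parp9 at −0.26 (SE 0.30), and both lay within 0.02 of 0 without EGFR-DN replicate 3. Xaf1, whose protein opposes the apoptosis inhibitor XIAP, was at −0.02 (SE 0.14), and at −0.03 (SE 0.10) without that library. The GTPase genes Mx1 and Mx2, which share reads, were at 0.91 (SE 0.59) and −0.20 (SE 0.30), and at 0.29 (SE 0.50) and −0.09 (SE 0.28) without it.

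**Figure D3:**
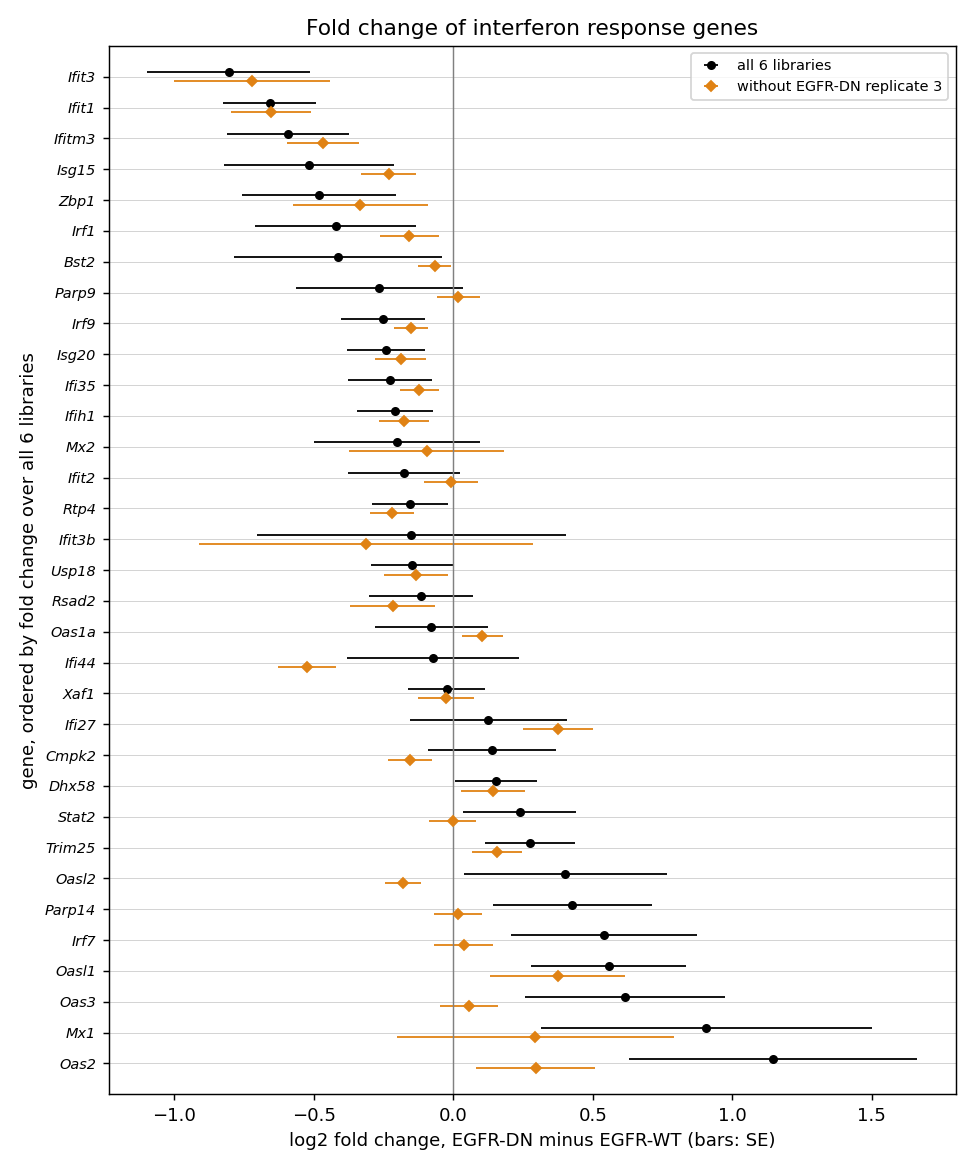
Log2 fold change of each gene, EGFR-DN minus EGFR-WT, with its SE as a bar, over all 6 libraries (black) and without EGFR-DN replicate 3 (orange). Ifit3, Ifit1 and Ifitm3 lie lowest in black, Oas2 lies highest at 1.15, and the orange bars are mostly shorter.

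Without EGFR-DN replicate 3 the median SE of the members was 0.10, against 0.28 with it. In that fit of 19919 genes edgeR again called 0 members, where it called 0.286% of all genes (0.0552% lower, 0.231% higher). At an unadjusted p under 0.05, 7 members (21.2%) were lower, namely Ifi44, Ifit1, Ifit3, Ifitm3, Irf9, Oasl2 and Rtp4, against 6.99% of all genes, and Ifi27 (3.03%) was higher, against 6.64% of all genes. In all, 22 of 33 log2 fold changes were below 0, against 51.1% of all genes, the members' median was −0.12, and 5 members changed sign. DESeq2 without that library, which was added after the values were seen, called 3 members lower, against 1.93% of all genes, and 0 higher, against 2.51% of all genes. They were Ifi44 (log2 fold change −0.52, adjusted p = 0.000954), Ifit1 (−0.65, adjusted p = 0.00414) and Ifitm3 (−0.46, adjusted p = 0.00728). These calls depend on the tool and on leaving out 1 library.

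In EGFR-DN replicate 3 itself, 10 members lay more than 1 log2 unit from the EGFR-WT mean, and in the other 5 libraries 0 did. Oas2, Mx1, Oas3, Irf7, Oasl2 and Parp14 lay above, and Bst2, Isg15, Irf1 and Parp9 below. Over all tested genes 18.0% lay that far above and 11.5% that far below in this library. Exon length moved with these values. The median exon length was 3674.5 bases for the 6 members above, 2064.5 for the 4 below and 2412 for the rest, and over all tested genes with a length it was 3919, 1263 and 2735.5 bases. Across the 33 members the deviation in this library had a Spearman rank correlation with exon length of 0.52, against 0.34 across 16713 tested genes. These values share 1 library and describe it only. Over all tested genes the same correlation was between −0.09 and 0.04 in the other 5 libraries. Across the 33 members it was 0.31 and 0.19 in EGFR-DN replicates 1 and 2. In EGFR-WT replicates 1 to 3 it was −0.05, 0.07 and 0.02 across the members. The part of exon length in the members' fold changes was not tested beyond leaving EGFR-DN replicate 3 out.

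**Figure D4:**
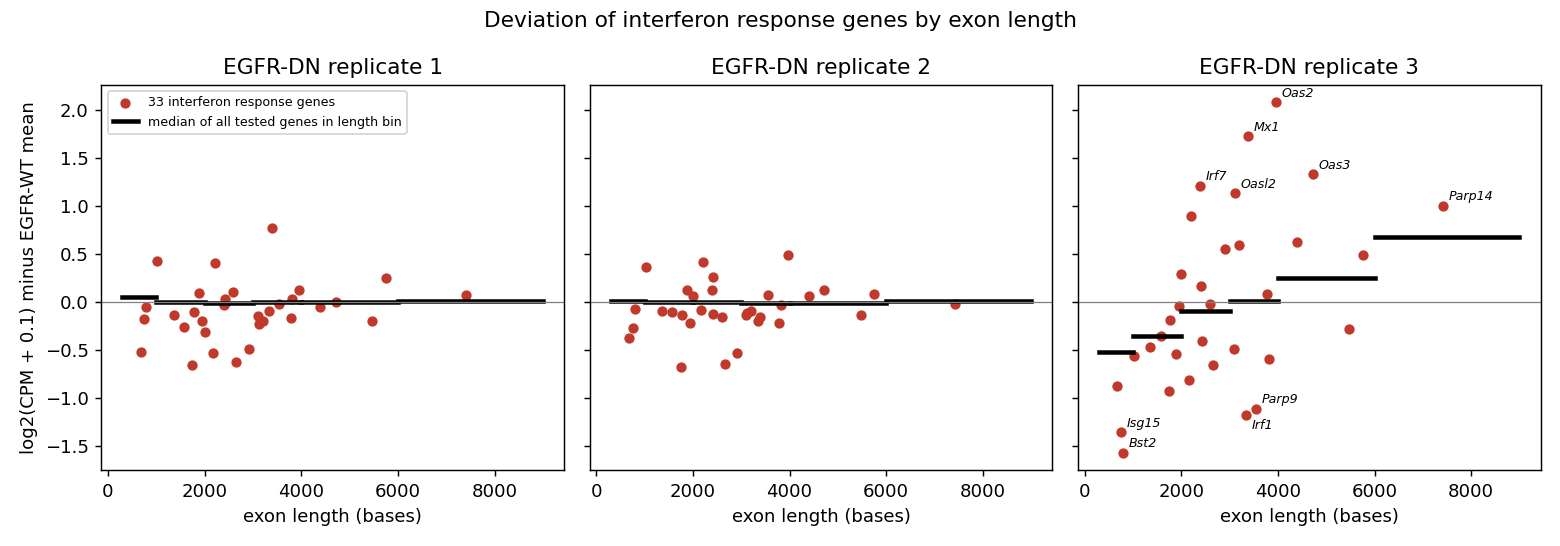
Each red point is 1 of the 33 genes, with its exon length in bases against log2(CPM + 0.1) minus the EGFR-WT mean, in EGFR-DN replicates 1, 2 and 3, and black steps give the median of all tested genes in each length bin. In replicate 3 the steps climb from −0.52 in the shortest bin to 0.67 in the longest, and genes past 1 log2 unit are named.

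The genes that make, receive and pass on the signal were read from 4 further lists of 56 genes in all, of which 36 passed the count filter. Of 18 type I interferon genes 13 had no counts in any library, which allows up to 0.152 TMM-scaled CPM each in EGFR-DN replicate 3, the library with the fewest counts. The highest count of the other 5 was 13 (Ifnk, in EGFR-DN replicate 3), so no ligand could be tested. Intervals and limits of this kind cover counting error only. Of the 36 tested genes edgeR called 0, with 4 higher (11.1%) and 0 lower at an unadjusted p under 0.05, against 4.3% and 2.4% of all genes. Among 5 libraries, with EGFR-DN replicate 3 left out, 8 of 36 were higher, against 6.64% of all genes, and 0 lower, against 6.99% of all genes. Their median was 0.21, and 0.04 without that library.

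Both receptor chains were present. Ifnar1 averaged 82.1 ± 9.93 CPM in EGFR-DN and 73.5 ± 3.10 CPM in EGFR-WT (SD, n = 3 each), with a log2 fold change of 0.16 (SE 0.15), and 0.05 (SE 0.07) without EGFR-DN replicate 3. Ifnar2 had 151, 129 and 113.2 CPM in EGFR-DN, against 103, 109 and 110.9 CPM in EGFR-WT, with no overlap and a log2 fold change of 0.29 (SE 0.16), and 0.38 (SE 0.08) without that library. The kinase genes Jak1 and Tyk2 were at −0.09 (SE 0.16) and 0.13 (SE 0.15), and at −0.05 (SE 0.06) and 0.18 (SE 0.11) without it. None of these 4 genes passed over 6 libraries (edgeR adjusted p from 0.690 to 0.820). Without EGFR-DN replicate 3 the adjusted p of Ifnar2 was 0.115 by edgeR and 0.0020 by DESeq2, which called it higher.

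The 4 genes at an unadjusted p under 0.05 were all higher in 3 of 3 EGFR-DN libraries. Unc93b1, which carries the nucleic acid sensing toll-like receptors to endosomes, had 77.4, 75.3 and 76.7 CPM in EGFR-DN, against 46.4, 53.0 and 54.7 CPM in EGFR-WT. Its log2 fold change was 0.57 (SE 0.13), with an adjusted p of 0.690 by edgeR and 0.0263 by DESeq2, which called this gene alone of the 36. Tlr7, an endosomal receptor for single-stranded RNA, had 8.36, 5.27 and 7.95 CPM in EGFR-DN, against 1.97, 3.73 and 3.90 CPM in EGFR-WT (log2 fold change 1.17, SE 0.34). Ifngr2, a chain of the interferon gamma receptor, was at 0.48 (SE 0.14), and Sting1, the adaptor of cytosolic DNA sensing, at 0.35 (SE 0.14). All 4 kept their direction without EGFR-DN replicate 3, at 0.57, 1.09, 0.49 and 0.32.

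**Figure D5:**
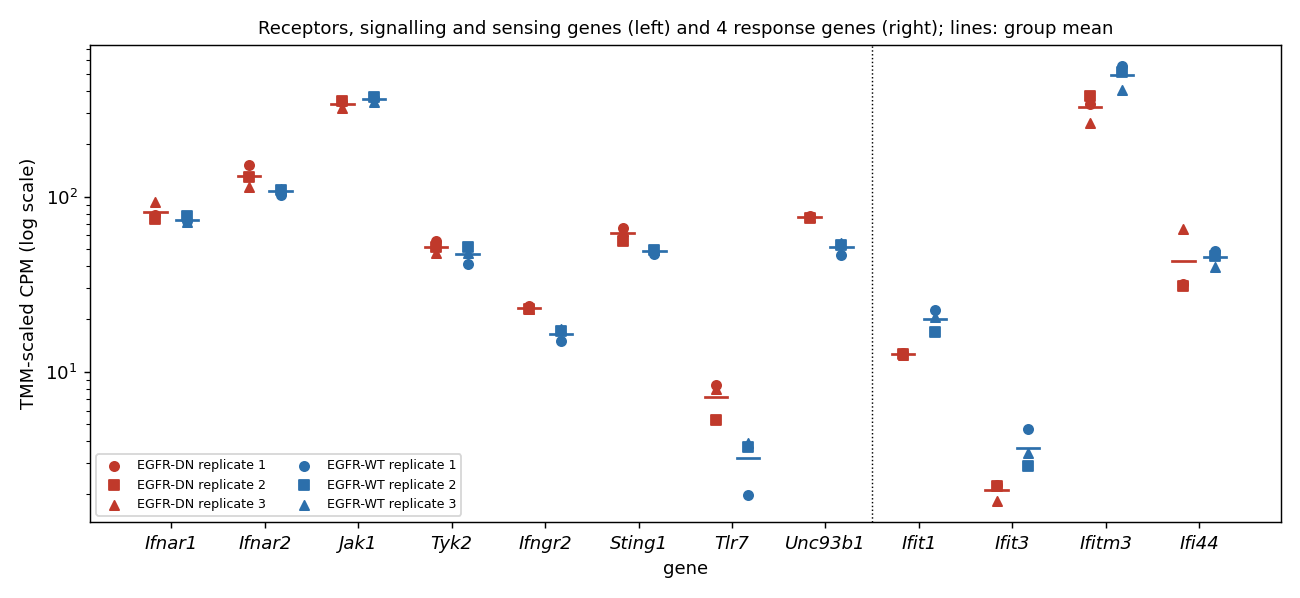
TMM-scaled CPM on a log axis for receptor, signalling and sensing genes left of the dotted line and 4 response genes right of it, with a point for each library and a line for each group mean. Unc93b1 and Tlr7 lie higher in every EGFR-DN library, and Ifit1, Ifit3 and Ifitm3 lie lower in every EGFR-DN library.

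Transcripts that mark other blood cells were present in both groups, and edgeR called 0 of the marker genes over the 6 libraries. It called 4 higher without EGFR-DN replicate 3 (Itgam, Irf8, Cox6a2 and Camp), and DESeq2 over the 6 libraries called Itgam, Irf8, Mpo, Cx3cr1, Ly6c2 and Blnk higher and Procr lower. Monocyte and macrophage markers (10 genes) summed to 82.4 to 137 CPM in EGFR-DN and 46.2 to 62.4 CPM in EGFR-WT. All 7 tested genes of this list were above 0, 5 of them at an unadjusted p under 0.05, against 4.3% of all genes higher. C1qa, C1qb and Adgre1 did not pass the count filter over the 6 libraries. C1qa had at most 0.262 CPM. C1qb had 1.37, 0.170 and 0.304 CPM in EGFR-DN, against 0.0317, 0.0799 and 0.158 CPM in EGFR-WT. Adgre1 had 1.37, 0.482 and 0 CPM in EGFR-DN, against 0.127, 0.293 and 0.118 CPM in EGFR-WT. Plasmacytoid dendritic cells are the main producers of interferon alpha, and their markers (9 genes) summed to 194 to 278 CPM in EGFR-DN and 199.6 to 215 CPM in EGFR-WT, most of it Tcf4. All 8 tested genes of this list were above 0, 4 of them at an unadjusted p under 0.05, against 4.3% of all genes higher. Irf8, a transcription factor that monocytes and their precursors also use, had 64.7, 50.6 and 35.2 CPM in EGFR-DN, against 15.9, 22.9 and 25.8 CPM in EGFR-WT, with no overlap and a DESeq2 adjusted p of 0.0196. Siglech, a defining marker of plasmacytoid dendritic cells, had 1.43, 0.708 and 0.0506 CPM in EGFR-DN, against 0.0952, 0.559 and 0.197 CPM in EGFR-WT. Its log2 fold change was 1.36 (SE 1.00), and 1.85 (SE 0.69) without EGFR-DN replicate 3. Cox6a2 had 10.9, 7.48 and 2.28 CPM in EGFR-DN, against 2.13, 3.06 and 2.52 CPM in EGFR-WT, and its groups overlapped. It was at 1.43 (SE 0.53), and at 1.83 (SE 0.25) without that library. Ccr9 (1.15, SE 0.38) and Pacsin1 (0.998, SE 0.41) were higher without overlap. Lair1 was at 0.01, Tcf4 at 0.04, and Klk1 had 0 counts in each library. The sums overlapped between the groups for this list and for erythroid markers. Neutrophil markers (10 genes) summed to 774 to 1418 CPM in EGFR-DN and 368 to 531 CPM in EGFR-WT, most of it Mpo. Mpo had 652, 647 and 1259 CPM in EGFR-DN, against 261, 429 and 328 CPM in EGFR-WT. S100a8, S100a9, Ngp, Ltf, Camp and Lcn2 each averaged at most 2.73 CPM in EGFR-DN and 0.860 CPM in EGFR-WT. All 8 tested genes of the neutrophil list were above 0, with a median log2 fold change of 1.67, and 1.38 without EGFR-DN replicate 3. They ran from Prtn3 (0.03, SE 0.21) to Ngp (2.84, SE 0.98), with S100a8 at 1.67 (SE 0.47) and S100a9 at 1.79 (SE 0.72). B cell markers (7 genes) summed to 50.7 to 70.0 CPM in EGFR-DN and 36.4 to 47.6 CPM in EGFR-WT. T and NK cell markers (9 genes) summed to 174 to 265 CPM in EGFR-DN and 141 to 170.2 CPM in EGFR-WT, most of it Nkg7. Nkg7 had 226, 207 and 150 CPM in EGFR-DN, against 98.8, 145 and 130 CPM in EGFR-WT. In the same list Cd3e averaged 0.114 CPM in EGFR-DN and 0.0355 CPM in EGFR-WT, and Klrb1c was lower (log2 fold change −1.33). Erythroid markers (6 genes) summed to 45.0 to 88.3 CPM in EGFR-DN and 36.2 to 48.7 CPM in EGFR-WT. At an unadjusted edgeR p under 0.05, 6 of 8 tested neutrophil markers and 3 of 6 B cell markers were higher. The same held for 2 of 6 T and NK cell markers and 1 of 5 erythroid markers, and 1 T and NK cell marker was lower. Over all tested genes 4.3% were higher and 2.4% lower at that threshold, and 49% had a log2 fold change below 0. Procr, a surface marker of stem cells, had 22.9, 32.3 and 15.1 CPM in EGFR-DN, against 74.9, 43.0 and 50.3 CPM in EGFR-WT. The part of these transcripts in the values of Ifit1, Ifitm3, Tlr7 and Unc93b1 was not tested.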

How the data were processed

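RNA of 3 EGFR-DN and 3 EGFR-WT libraries was read after oligo(dT)-primed SMART-Seq v4 and Nextera XT preparation, per the labels' protocols, from 10 ng of RNA as single reads of 75 bases. Estimated counts, as the authors deposited them, stand per gene symbol without scaling, and 79.4% are whole numbers. In the submitters' processing notes DRAGEN, DESeq2 1.40.2, R 4.3.1 and the build mm39 are named, while their roles, the annotation and any strand setting remain not given in the sources used here. Counts were expected to be whole when the tests were chosen, so the estimates were rounded. After filterByExpr and TMM scaling, 19313 genes were tested in R 4.3.3 by edgeR 4.0.16 (two-sided quasi-likelihood test, Benjamini-Hochberg, threshold 0.05). Each standard error (SE) was obtained as |log2 fold change| over the root of F. Alternatives used DESeq2 1.42.0 and limma 3.58.1. Log2 levels by library add 0.1 CPM. Scripts were tested on simulated counts. No pair of libraries was a duplicate (smallest chi-square per degree of freedom 14.9). The members, lists and tests were chosen with earlier results of these data known. Members with a mean of at least 4 CPM or an unadjusted p under 0.05 are described singly, as are the receptors, Jak1 and Tyk2, and pathway genes that meet both conditions. The others, and genes such as Siglech, Klk1 and C1qa, were named after their values were seen. Promoters are from RefSeq. A further pathway gene is not reported here.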

Additional observations from a re-analysis of the deposited data

How the results depend on the processing

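Under every alternative run with edgeR or limma-voom 0 of the 33 members and 0 of the pathway genes were called. The DESeq2 test called 135 genes, 0 members and 1 pathway gene, and DESeq2 without EGFR-DN replicate 3, added after the values were seen, called 884 genes, 3 members and 6 pathway genes. The count over all genes was 0 with limma-voom and 0 to 57 with 1 library left out. It was 57 without EGFR-DN replicate 3 and 0 without any one of the EGFR-WT libraries. The number of members below 0 stayed between 20 and 22 where all 33 were tested. It was 19 of 32 with at least 50 counts in 3 libraries. With Ifit3 and Ifit3b, and Mx1 and Mx2, summed, it was 19 of 31. The members' median, −0.15, was −0.19 without a filter, −0.26 with library size alone, which moved the median of all genes to −0.10, and −0.16 to −0.11 with 1 library left out.

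Some members near 0 turned sign. Cmpk2 was −0.015 with library size alone, Xaf1 0.00020 with at least 50 counts in 3 libraries, and Ifit3b 0.032 with limma-voom. With 1 library left out, values ran from −0.51 to 0.47 for Ifit3b, −0.093 to 0.030 for Xaf1, −0.52 to 0.0997 for Ifi44, −0.044 to 0.38 for Ifi27 and −0.25 to 0.0022 for Rsad2. They ran from −0.0020 to 0.36 for Stat2, −0.20 to 0.10 for Oas1a, −0.18 to 0.63 for Oasl2, −0.15 to 0.28 for Cmpk2 and −0.47 to 0.019 for Parp9, and in these 5 the turned sign came from leaving out EGFR-DN replicate 3. DESeq2 without that library gave 0.11 for Oas1a, −0.18 for Oasl2, −0.15 for Cmpk2 and 0.021 for Parp9. For Stat2 it gave 0.00034, so that sign did not turn. The cause was not tested. Same-numbered libraries of the 2 groups had deviations correlated at −0.02, 0.05 and 0.06, against −0.09 to 0.09 for differently numbered ones. With 3 libraries per group, and EGFR-DN replicate 3 apart from the others, this cannot decide whether the numbers pair libraries. With the replicate block 1 gene and 0 members were called, the members' median stayed at −0.15, 20 members were below 0, and Ifit3b turned to 0.0073. Precision was lowest for members at a few CPM, such as Mx1 (SE 0.59) and Ifit3b (SE 0.55).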
